A study of Mus musculus with 4 samples.

Results

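The genes described here encode amino acid carriers of 7 solute carrier (SLC) families, measured in heart muscle cells of adult mice. Members were taken by gene symbol (those starting with Slc1a, Slc3a, Slc6a, Slc7a, Slc36a, Slc38a or Slc43a) and had to be well above background on 2 or more of the 4 arrays. Of 63 such genes with a named probe on the array, 29 met this, out of 12542 genes of all kinds that did. Slc7a6os starts with the same letters but is no carrier. It is counted as a member and named apart.

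The tested cells, CM-Dox, came from 10-week-old male mice given doxycycline by intraperitoneal injection for 2 days, and CM-Ctl cells from like mice given PBS for 2 days. Per the labels, all animals carried the same alleles, an αMHC promoter-driven CRE and a tetO cassette of the reprogramming factors OSKM (Pou5f1, Sox2, Klf4 and Myc), and doxycycline was given to induce the factors in heart muscle cells, where this promoter is active. No group had doxycycline without the factors, and drug and factors cannot be told apart here. Each group had 2 arrays, 1-colour Agilent arrays hybridised with Cy3-labelled RNA, and the labels do not say that these came from separate animals, so a p-value here covers only how far these samples vary, and part or all of that may be technical variation.

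Amino acids cross membranes on carriers that differ in what they take and in what drives them. The SLC1 and SLC6 proteins and most SLC38 proteins use sodium, and several SLC36 proteins use protons. SLC43 proteins let neutral amino acids run down their gradient, and SLC7 proteins mostly swap one amino acid for another. Several SLC7 light chains reach the cell surface only when joined to an SLC3 heavy chain. In heart muscle these carriers supply protein synthesis and bring in glutamine, taurine and creatine, and several carrier genes are known targets of ATF4, the transcription factor that cells raise when amino acids run short.

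A level below is the log2 of the processed signal minus the log2 of the array's 75th percentile, and a difference is CM-Dox minus CM-Ctl on that scale, with the standard error (SE) of the limma fit and n = 2 per group. A probe's level was compared between arrays. Levels of different probes were ranked to choose each gene's brightest probe, and signals were added up in the sums over marker genes. The 75th percentile was 248.2 and 192.6 on CM-Dox arrays 1 and 2 and 112.3 and 170.8 on CM-Ctl arrays 1 and 2, with well-above-background flags on 50.6% to 51.8% of spots. Signals of repeated spots varied by a median of 10.99% on CM-Ctl array 1 and by 4.0% to 4.8% on the other arrays, so CM-Ctl array 1 stood apart, and results are also given without it. All 8 heart muscle markers looked for were well above background. Their summed signals (in multiples of the 75th percentile) were 1794 and 2417 on the CM-Dox arrays against 2581 and 2606 on the CM-Ctl arrays. The brightest, Myh6 (-0.51) and Myl2 (-0.54), weigh most in these sums and were lower on average in CM-Dox cells, while the other 6 were higher. The median difference of the 8 was 0.16, and -0.32 without CM-Ctl array 1. Of the 8, 6 were lowest on CM-Ctl array 1. Of the introduced factors, Myc read 1.77 and -0.49 on the CM-Dox arrays against -2.34 and -3.21 on the CM-Ctl arrays, Klf4 read 3.19 and 3.17 on the CM-Dox arrays against 3.98 and 2.95 on the CM-Ctl arrays, and Pou5f1 was well above background on CM-Dox array 1 alone and Sox2 on no array.

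In promoters, ATF4 with C/EBP partners is known to bind sites of the form TGATGNAA, and MYC with MAX binds CACGTG. The promoters of the 3 carriers with the largest positive differences are shown because the results turn on these genes, and those of Slc43a1 and Slc1a4 because they hold one of these motifs. Each runs from 250 bases before the annotated start to 50 bases after it (RefSeq, GRCm38.p6), with motif matches in capitals. Slc43a2 has 2 start sites in the table, of which the upstream one is shown.
Slc43a2, chr11:75531444-75531743, + strand: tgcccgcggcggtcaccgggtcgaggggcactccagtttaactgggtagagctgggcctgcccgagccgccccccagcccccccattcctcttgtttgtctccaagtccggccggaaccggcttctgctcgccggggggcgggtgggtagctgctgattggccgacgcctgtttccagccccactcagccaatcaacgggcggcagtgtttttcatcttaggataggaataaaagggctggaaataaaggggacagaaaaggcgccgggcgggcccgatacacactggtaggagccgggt
Slc3a2, chr19:8713848-8714147, - strand: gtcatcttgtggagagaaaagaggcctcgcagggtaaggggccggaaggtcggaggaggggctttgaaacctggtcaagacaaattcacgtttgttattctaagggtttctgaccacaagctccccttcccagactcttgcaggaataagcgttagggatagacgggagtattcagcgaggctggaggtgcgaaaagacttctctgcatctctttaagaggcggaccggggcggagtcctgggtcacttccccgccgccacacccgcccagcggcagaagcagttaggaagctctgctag
Slc38a2, chr15:96699679-96699978, - strand: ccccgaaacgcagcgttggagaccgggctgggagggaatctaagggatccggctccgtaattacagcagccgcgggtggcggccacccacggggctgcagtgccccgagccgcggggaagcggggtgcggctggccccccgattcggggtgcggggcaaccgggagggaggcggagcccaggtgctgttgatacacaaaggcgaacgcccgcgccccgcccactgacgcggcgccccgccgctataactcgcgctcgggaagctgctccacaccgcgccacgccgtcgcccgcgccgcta
Slc43a1, chr2:84840073-84840372, + strand: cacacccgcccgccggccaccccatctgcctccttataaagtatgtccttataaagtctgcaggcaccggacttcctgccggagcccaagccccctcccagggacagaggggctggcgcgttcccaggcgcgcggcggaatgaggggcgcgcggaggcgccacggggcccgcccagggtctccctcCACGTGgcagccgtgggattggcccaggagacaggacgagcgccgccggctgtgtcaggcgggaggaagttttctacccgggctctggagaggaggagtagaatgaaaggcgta
Slc1a4, chr11:20332664-20332963, - strand: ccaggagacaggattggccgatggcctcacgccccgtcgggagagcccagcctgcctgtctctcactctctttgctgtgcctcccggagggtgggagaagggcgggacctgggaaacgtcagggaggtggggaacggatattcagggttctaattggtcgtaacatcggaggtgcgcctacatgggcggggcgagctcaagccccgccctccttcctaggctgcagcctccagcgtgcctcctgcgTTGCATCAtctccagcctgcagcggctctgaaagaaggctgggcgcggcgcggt

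The capitals in Slc43a1 are CACGTG, whose first base lies at -64 from the start site. Those in Slc1a4 are TGATGNAA read on the other strand, beginning at -4. The first 3 promoters hold neither motif, and the other Slc43a2 start site has none either. Sites outside these promoters, such as in introns, were not looked for. Of the 29 members, 20 had a promoter in the table, 32 promoters in all. TGATGNAA was found on either strand in 3 of these 32 (9.38%, in Slc1a4 and in 2 overlapping promoters of Slc7a7, which share 1 of their sites), against 3.97% of all 32851 promoters of the same length. CACGTG was found in 3 of 32 (9.38%, in Slc43a1, Slc36a1 and Slc38a7), against 7.15% of all. These are matches of letters, and no member's promoter held both motifs.

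**Figure D1:**
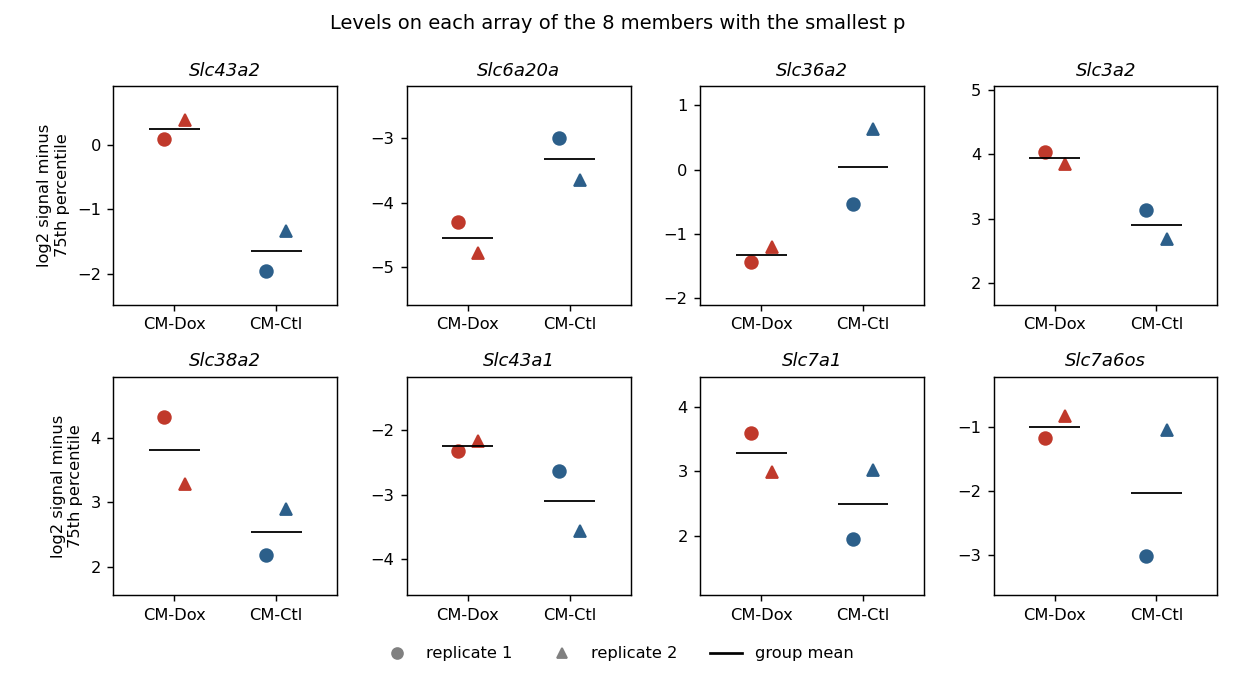
Log2 signal minus the array's 75th percentile for the 8 members with the smallest p, CM-Dox left and CM-Ctl right. Circles are replicate 1, triangles replicate 2 and lines the group means, and every panel spans the same number of log2 units. The groups are apart in the first 6 panels, which choosing by p favours, and overlap for Slc7a1 and Slc7a6os. Over all genes 35.3% had groups apart. Slc6a20a, among the 6, passed the filter only through the CM-Ctl arrays and so had to differ.

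The carriers fell into no common direction. On average 13 members were higher in CM-Dox cells (45.2% of all genes) and 16 lower, and 0 of 29 passed limma at an adjusted p under 0.05, where 0% of all 12542 genes did. Unadjusted p was under 0.05 for 3 members that were higher (3.17% of all genes) and for 2 that were lower (3.89% of all genes), where 7.06% of all genes met it in either direction. Both CM-Dox arrays lay above both CM-Ctl arrays for 6 members (14.5% of all genes) and below both for 6 (20.8% of all genes), where 35.3% of all genes did one or the other. The difference was 1 or more for 4 members (5.27% of all genes) and -1 or less for 2 (7.11% of all genes). These counts include Slc6a20a among the lower members and Slc7a6 among those above, which passed the filter only through the group where they were higher and so had to differ. The median difference of the members was -0.08, against -0.06 over all genes tested, and the median size of a difference, whatever its sign, was 0.51 against 0.35. The smallest p that 2 arrays against 2 can give by permutation is 0.333.

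All 3 SLC43 genes were higher on average in CM-Dox cells. Slc43a2, which encodes LAT4, a carrier of branched-chain and aromatic amino acids, read 0.10 and 0.40 on the CM-Dox arrays against -1.96 and -1.34 on the CM-Ctl arrays. The groups were far apart compared with the gap within either one. Its difference was 1.90 ± 0.43 (SE, 3.72-fold, 95% interval 0.86 to 2.93, limma adjusted p = 0.335), the smallest p of all 29 members and number 134 among all genes. Without CM-Ctl array 1 the difference was 1.58. In unscaled processed signal the gene read 265.7 and 253.4 on the CM-Dox arrays against 28.8 and 67.7 on the CM-Ctl arrays. Both CM-Ctl arrays had lower 75th percentiles, which widens the gap in unscaled signal. Slc43a1 encodes LAT3, which carries the same kind of amino acid, and read -2.32 and -2.16 on the CM-Dox arrays against -2.63 and -3.57 on the CM-Ctl arrays. Both CM-Dox arrays were higher, with a difference of 0.86 ± 0.47 (SE, limma adjusted p = 0.832), but the CM-Ctl arrays were 0.94 apart from each other. Slc43a3, a carrier of purine bases such as adenine and not of amino acids, read 2.51 and 2.85 on the CM-Dox arrays against 3.19 and 1.39 on the CM-Ctl arrays. Its CM-Ctl arrays lay on either side of both CM-Dox arrays, and its difference of 0.39 ± 0.63 (SE) was 1.29 without CM-Ctl array 1. The family's median difference was 0.86, and 1.33 without CM-Ctl array 1.

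Of the heavy chains, Slc3a2 was detected on all 4 arrays and Slc3a1 on none. Slc3a2 encodes the heavy chain CD98 (4F2hc), which holds its light chains at the cell surface, and it read 4.04 and 3.86 on the CM-Dox arrays against 3.13 and 2.68 on the CM-Ctl arrays. Both CM-Dox arrays were higher than both CM-Ctl arrays, by 1.04 ± 0.41 (SE, 2.06-fold, 95% interval 0.06 to 2.03, limma adjusted p = 0.679). Without CM-Ctl array 1 the difference was 1.27. In processed signal the gene read 4079 and 2788 on the CM-Dox arrays against 982.8 and 1091 on the CM-Ctl arrays.

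The light chains that join CD98 varied among themselves. Slc7a5 encodes LAT1, the exchanger of large neutral amino acids, and had 2 probes for the same transcript whose differences had opposite signs. The brighter one read -2.17 and -2.01 on the CM-Dox arrays against -1.501 and -2.52 on the CM-Ctl arrays, a difference of -0.08 ± 0.48 (SE, limma adjusted p = 0.992) with overlapping groups. Without CM-Ctl array 1 that difference was 0.43. The dimmer one read -2.20 and -3.09 on the CM-Dox arrays against -4.03 and -3.58 on the CM-Ctl arrays. It was not well above background on either CM-Ctl array and passed the filter through the CM-Dox arrays alone. Its mean was at least 1.99-fold higher in CM-Dox cells. The brighter probe's sign depended on CM-Ctl array 1, and the dimmer probe had to differ to pass the filter. No direction is therefore given for this gene. Where a probe is below background on all arrays of a group, as here, its fold is a lower bound, taken against what the array could have measured at least: the lowest signal it flagged as well above background, or the probe's own signal where that was higher. Such a bound is on the group means and leaves out how far the arrays vary. Slc7a6 encodes y+LAT2, which exchanges cationic for neutral amino acids, and passed the filter through the CM-Dox arrays alone. It read -3.40 and -3.09 on the CM-Dox arrays against -3.49 and -4.20 on the CM-Ctl arrays, at least 1.42-fold higher in CM-Dox cells (limma adjusted p = 0.895). Slc7a7, the related y+LAT1, read -0.66 and -0.68 on the CM-Dox arrays against 0.57 and -1.32 on the CM-Ctl arrays. Its CM-Dox arrays agreed closely and lay between the CM-Ctl arrays, with a difference of -0.30 ± 0.65 (SE) and of 0.64 without CM-Ctl array 1. Slc7a8, Slc7a10 and Slc7a11, the light chains of LAT2, Asc-1 and the cystine carrier xCT, were not well above background on any array, nor was Slc7a9, the partner of Slc3a1.

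Of the carriers for cationic amino acids, Slc7a1, which encodes CAT1, the broadly expressed carrier of arginine and lysine, read 3.59 and 2.996 on the CM-Dox arrays against 1.95 and 3.02 on the CM-Ctl arrays. CM-Ctl array 2 was level with CM-Dox array 2, and the difference of 0.81 ± 0.51 (SE, limma adjusted p = 0.877) was 0.28 without CM-Ctl array 1. Slc7a4, a relative of the cationic carriers with no settled substrate, read -2.65 and -1.44 on the CM-Dox arrays against -1.89 and -0.42 on the CM-Ctl arrays, a difference of -0.89 ± 0.65 (SE) with overlapping groups. Slc7a2 and Slc7a3 were not well above background on any array. Slc7a6os, named for lying opposite Slc7a6, read -1.18 and -0.83 on the CM-Dox arrays against -3.02 and -1.05 on the CM-Ctl arrays. It was low on CM-Ctl array 1 alone, and its difference of 1.03 ± 0.67 (SE) was 0.05 without that array. Slc7a members had a median difference of 0.26, and of 0.35 without CM-Ctl array 1. That median counts Slc7a6os, which is no carrier, and Slc7a6, which passed the filter through the CM-Dox arrays alone. With the filter on all 4 arrays, which leaves both out, it was -0.19, so no direction is given for the family.

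**Figure D2:**
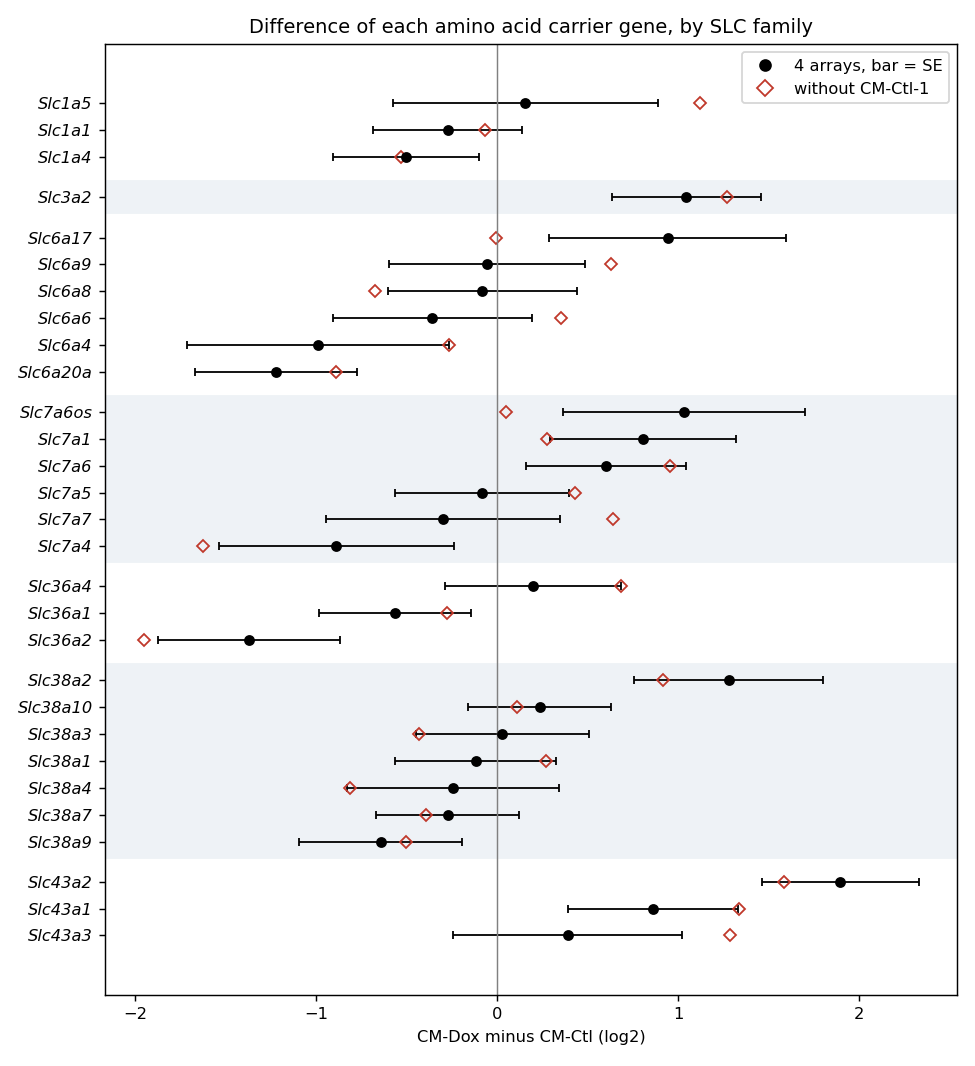
CM-Dox minus CM-Ctl (log2) for each of the 29 members, grouped by family. Filled circles use all 4 arrays with the SE of the limma fit as bars, and open diamonds leave out CM-Ctl array 1. Slc43a2, Slc38a2 and Slc3a2 lie farthest to the right among genes whose groups do not overlap, Slc36a2 and Slc6a20a (below background in CM-Dox cells) farthest to the left, and 7 members lie on opposite sides of 0 in the 2 settings.

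Among the SLC38 carriers of glutamine and other small neutral amino acids, Slc38a2 had the smallest p. It encodes SNAT2, the sodium-coupled carrier that cells make more of when amino acids are scarce, and it read 4.34 and 3.29 on the CM-Dox arrays against 2.18 and 2.89 on the CM-Ctl arrays. CM-Dox array 1 was the highest by more than 1 log2 unit, and CM-Dox array 2 was only a little above CM-Ctl array 2. The difference was 1.28 ± 0.52 (SE, 2.43-fold, 95% interval 0.03 to 2.52, limma adjusted p = 0.689). It was 0.92 without CM-Ctl array 1 and 0.75 without CM-Dox array 1. Slc38a1, the related SNAT1, had overlapping groups and a difference of -0.12 ± 0.44 (SE). Slc38a3, the glutamine carrier SNAT3, read 1.23 and 1.67 on the CM-Dox arrays against 0.97 and 1.88 on the CM-Ctl arrays, a difference of 0.03 ± 0.48 (SE) with a 95% interval of -1.11 to 1.17. That interval leaves room for a change of about 1 log2 unit in either direction. Slc38a4, well above background on 1 array of each group, differed by -0.24 ± 0.58 (SE). The family's median difference was -0.12, and -0.39 without CM-Ctl array 1. Slc38a5, Slc38a8 and Slc38a11 were not well above background on any array.

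Several carriers sit on lysosomes or other inner membranes. Slc38a9, the lysosomal arginine sensor that acts on mTORC1, read -2.04 and -1.26 on the CM-Dox arrays against -0.87 and -1.14 on the CM-Ctl arrays, a difference of -0.64 ± 0.45 (SE, limma adjusted p = 0.894). CM-Dox array 1 was the low one, and a dimmer probe for it, well above background on 2 arrays, differed by -0.35. Slc38a7, a lysosomal glutamine carrier, differed by -0.27 ± 0.39 (SE) and Slc38a10, a less studied relative, by 0.24 ± 0.40 (SE), in both cases with groups that did not overlap. Slc36a1, the lysosomal proton-coupled carrier PAT1, read -2.57 and -2.48 on the CM-Dox arrays against -1.67 and -2.25 on the CM-Ctl arrays, a difference of -0.56 ± 0.42 (SE), and Slc36a4 differed by 0.20 ± 0.49 (SE) with overlapping groups. The SLC36 gene with the smallest p was Slc36a2, which encodes PAT2, a proton-coupled carrier of glycine, alanine and proline. It read -1.44 and -1.21 on the CM-Dox arrays against -0.53 and 0.63 on the CM-Ctl arrays, so both CM-Dox arrays were lower. In unscaled processed signal it read 91.8 and 83.1 on the CM-Dox arrays against 77.6 and 263.5 on the CM-Ctl arrays. On that measure CM-Ctl array 1 lay below both CM-Dox arrays. Its difference of -1.37 ± 0.51 (SE, 95% interval -2.58 to -0.16, limma adjusted p = 0.639) was -1.95 without CM-Ctl array 1. The SLC36 median was -0.56 with all arrays and -0.28 without CM-Ctl array 1. In unscaled processed signal the groups of Slc38a9, Slc38a7 and Slc36a1 overlapped as well.

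Of the SLC1 carriers, the glutamate carriers Slc1a3, Slc1a6 and Slc1a7 were well above background on no array. Slc1a1, the glutamate and cysteine carrier EAAC1, differed by -0.27 ± 0.41 (SE) with overlapping groups. Slc1a4 encodes ASCT1, which exchanges alanine, serine and cysteine, and read 0.65 and 0.27 on the CM-Dox arrays against 0.94 and 0.99 on the CM-Ctl arrays. Both CM-Dox arrays were lower, by 0.51 on average (difference -0.51 ± 0.40, SE, limma adjusted p = 0.899), and by 0.53 without CM-Ctl array 1 (difference -0.53). In unscaled processed signal the groups overlapped, at 389 and 231.7 on the CM-Dox arrays against 215.3 and 338.4 on the CM-Ctl arrays. Slc1a5 encodes ASCT2, the glutamine exchanger, and had the largest SE of the members. It read 0.86 and -0.35 on the CM-Dox arrays against 1.06 and -0.86 on the CM-Ctl arrays, so replicate 1 was high and replicate 2 low in both groups. Its difference was 0.16 ± 0.73 (SE), and a second probe gave 0.30. The SLC1 median was -0.27, and -0.07 without CM-Ctl array 1.

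The SLC6 family, which holds carriers of transmitters, osmolytes and creatine, had the most genes at background. Of its 19 probed genes, 6 passed the filter and 11 were well above background on no array, among them Slc6a2 and Slc6a3, the noradrenaline and dopamine carriers, and the GABA carriers Slc6a11 and Slc6a13. Slc6a8, the creatine carrier that heart muscle depends on, read 4.54 and 4.10 on the CM-Dox arrays against 3.81 and 4.99 on the CM-Ctl arrays, a difference of -0.08 ± 0.52 (SE, limma adjusted p = 0.992). Slc6a6, the taurine carrier, read 2.07 and 2.08 on the CM-Dox arrays against 3.15 and 1.73 on the CM-Ctl arrays, a difference of -0.36 ± 0.55 (SE). In both genes the CM-Dox arrays lay between the CM-Ctl arrays. Slc6a9, the glycine carrier GlyT1, did the same on each of 2 probes, which differed by -0.06 and -0.05. Slc6a20a, a carrier of proline, read -4.30 and -4.79 on the CM-Dox arrays against -2.99 and -3.65 on the CM-Ctl arrays. It passed the filter through the CM-Ctl arrays alone and was at least 1.78-fold lower in CM-Dox cells (limma adjusted p = 0.636). Slc6a4, the serotonin carrier, read -5.17 and -3.48 on the CM-Dox arrays against -2.61 and -4.06 on the CM-Ctl arrays, and Slc6a17, a vesicular carrier of neutral amino acids in neurons, read -3.15 and -2.78 on the CM-Dox arrays against -4.85 and -2.96 on the CM-Ctl arrays. Both had overlapping groups, with differences of -0.99 ± 0.72 (SE) for Slc6a4 and 0.94 ± 0.66 (SE) for Slc6a17. Without CM-Ctl array 1 these were -0.27 and -0.0049. The SLC6 median was -0.22, and -0.14 without CM-Ctl array 1.

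At the edge of detection, Slc38a4, Slc6a20a, Slc6a4 and Slc7a6 were just inside the filter, with processed signals of 17.3 to 23.5 on the arrays of CM-Dox cells that were well above background and of 13.6 to 18.9 on those of CM-Ctl cells. Just outside, with 1 array each, were Slc1a2, Slc6a12, Slc6a7 and Slc38a6. Slc6a12, the betaine carrier, had a processed signal of 41.8 on CM-Dox array 1 and 2.62 on CM-Dox array 2, against 2.01 and 2.31 on the CM-Ctl arrays, from 1 spot per array. Slc1a2, the main glutamate carrier of glia, read 23.7 and 12.7 on the CM-Dox arrays against 2.10 and 7.12 on the CM-Ctl arrays, and 2 other probes for it were at background on every array. Slc6a7, a proline carrier of the brain, read 4.997 and 2.95 on the CM-Dox arrays against 10.9 and 12.5 on the CM-Ctl arrays. Slc38a6, a less studied SLC38 gene, read 7.52 and 10.5 on the CM-Dox arrays against 17.8 and 6.39 on the CM-Ctl arrays, and each of these 4 genes was well above background on replicate 1 of a single group.

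**Figure D3:**
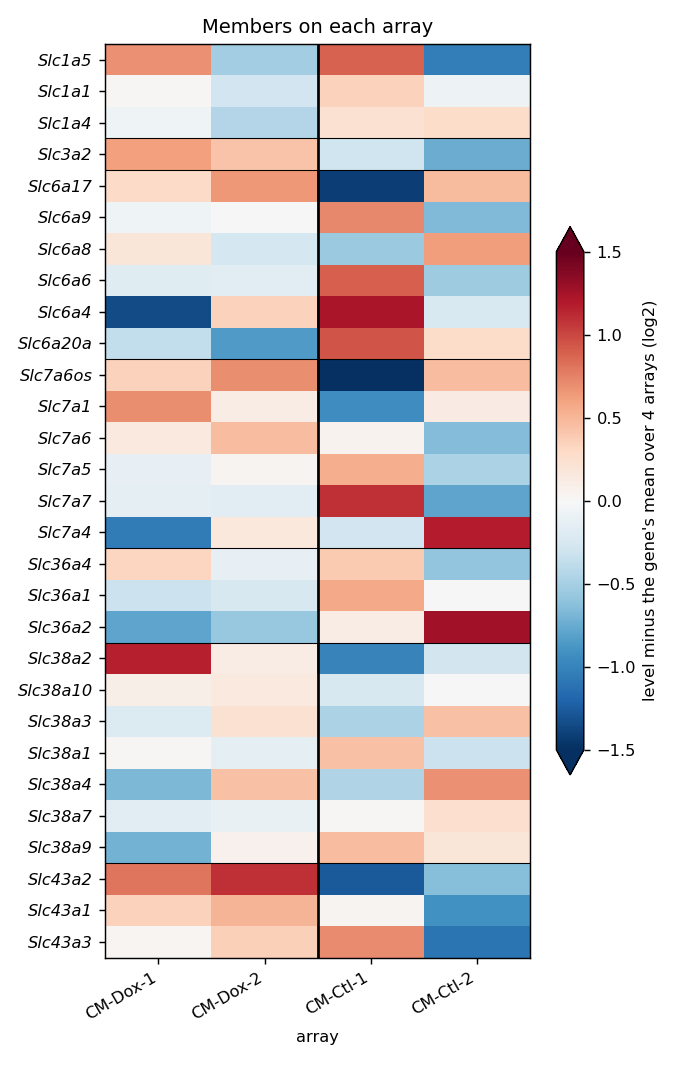
Level of each member minus its mean over the 4 arrays (log2, colour scale from -1.5 to 1.5 and saturated beyond), with CM-Dox arrays left and CM-Ctl arrays right of the thick line and thin lines between families. CM-Ctl array 1 holds the highest level of 13 members and the lowest of 8.

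The CM-Ctl arrays differed from each other for many members. CM-Ctl array 1 was the highest or lowest of the 4 arrays for 72.4% of the members and for 72.0% of all genes. Without that array, both CM-Dox arrays lay above CM-Ctl array 2 for 14 members (28.4% of all genes) and below it for 10 (44.3% of all genes), and the members' median difference was 0.11, against -0.11 over all genes. The difference changed sign for 7 of the 29 members (28.2% of all genes). Members that were higher on CM-Ctl array 1 than on CM-Ctl array 2 included Slc1a5 by 1.92, Slc7a7 by 1.89, Slc43a3 by 1.80, Slc6a6 by 1.42 and Slc6a9 by 1.38. Among those that were lower there were Slc6a8, at -1.18, and Slc38a3, at -0.92.

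Markers of other cells also differed between these arrays. All 10 of 10 endothelial markers passed the filter, with summed signals of 194.5 and 250 on the CM-Dox arrays against 595.5 and 193.5 on the CM-Ctl arrays. Their median difference was -0.18, and 0.49 without CM-Ctl array 1. All 10 of 10 fibroblast markers passed too, with sums of 114.9 and 134.9 against 362.6 and 127.7. Dcn and Gsn, the brightest, weigh most in these sums. Of the fibroblast markers, 9 were lower on average in CM-Dox cells. The median difference of the fibroblast list was -1.65, and -0.92 without CM-Ctl array 1. Without that array both CM-Dox arrays were below CM-Ctl array 2 for 6 fibroblast markers, among them Lum (-2.92), Col3a1 (-2.80) and Col1a1 (-2.05). They were above it for 3, among them Dcn (0.52). Of 9 probed macrophage markers 8 passed, with Cd163 not well above background, and summed to 6.04 and 6.85 on the CM-Dox arrays against 22.4 and 8.18 on the CM-Ctl arrays. Of 6 probed red cell markers 3 passed, with Slc4a1 and Epb42 among those not well above background, and summed to 11.6 and 13.8 on the CM-Dox arrays against 93.8 and 18.1 on the CM-Ctl arrays. Each of these lists was highest on CM-Ctl array 1. All 9 smooth muscle and pericyte markers passed, with sums of 33.4 and 26.0 on the CM-Dox arrays against 80.5 and 67.2 on the CM-Ctl arrays, and 7 Schwann cell and nerve markers did, with sums of 1.04 and 2.01 against 6.99 and 2.46. Of 7 probed neutrophil markers 5 passed, without Mmp8 and Cxcr2, with sums of 51.3 and 54.3 on the CM-Dox arrays against 72.3 and 38.6 on the CM-Ctl arrays. Csf3r, the brightest, weighs most in these sums. The median difference of the 5 was 2.33, and 2.82 without CM-Ctl array 1. Of the 5, 3 were higher on average, S100a8 (3.67), S100a9 (3.26) and Retnlg (2.33), and Csf3r (-0.33) and Camp (-0.34) were not. T and B cell markers were mostly at background, with 2 of 8 above it. The part of other cells in the carriers' values was not tested, and in such samples fewer cells of a type and less RNA per cell cannot be told apart.

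Carriers grouped by substrate gave small numbers. Of the 5 measured carriers of large neutral amino acids (Slc43a1, Slc43a2, Slc7a5, Slc7a6 and Slc7a7), both CM-Dox arrays were above both CM-Ctl arrays for 3 (14.5% of all genes) and below for 0 (20.8% of all genes), 1 of the 3 being Slc7a6, which passed the filter through the CM-Dox arrays alone. The 5 had a median difference of 0.60 and of 0.96 without CM-Ctl array 1. Both medians are the values of Slc7a6 itself, which had to differ to pass the filter, so they do not summarize the group. Of 6 measured carriers of glutamine and small neutral amino acids, 3 were higher and 3 lower on average, with a median of -0.04. For 9 carriers known as ATF4 targets, 7 passed the filter, Slc7a3 and Slc7a11 being at background. Of the 7, 4 were higher on average (45.2% of all genes), with a median of 0.16 and of 0.63 without CM-Ctl array 1. Slc7a5, for which no direction is given, is among the 7 and was counted as lower by its brighter probe. Slc3a2 and Slc38a2 were the 2 of the 7 with an unadjusted p under 0.05, both higher (3.17% of all genes).

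**Figure D4:**
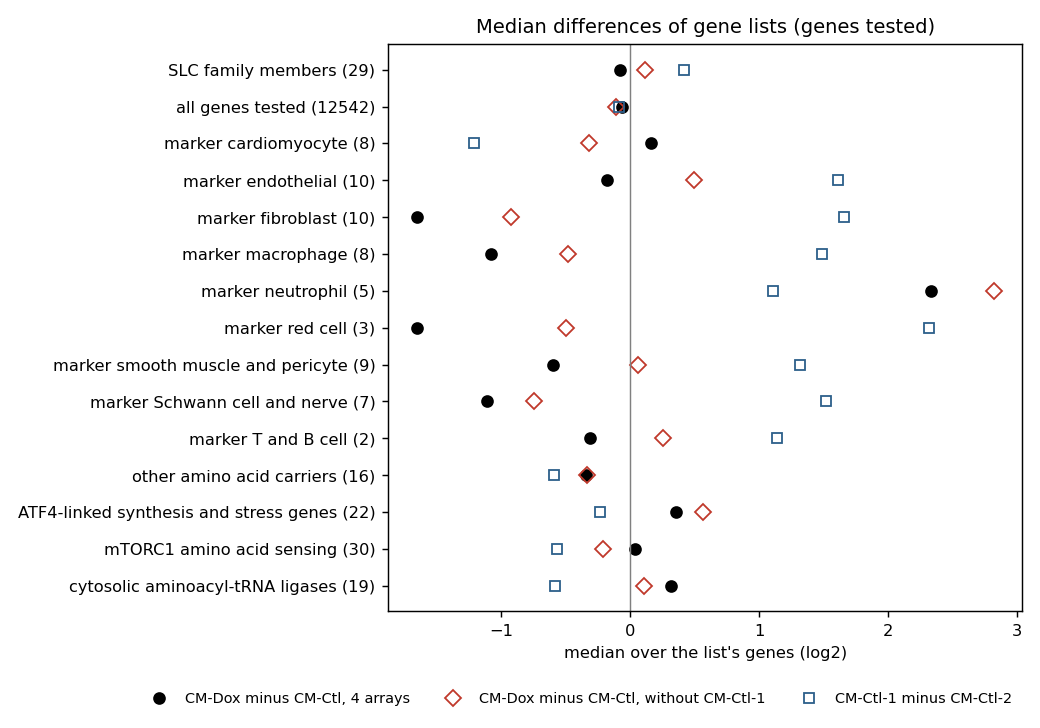
Median over the genes of each list (log2, number of genes tested in parentheses) of CM-Dox minus CM-Ctl with all arrays (filled circles), of the same without CM-Ctl array 1 (open diamonds) and of CM-Ctl array 1 minus CM-Ctl array 2 (open squares). The SLC members lie near all genes on the first measure (-0.08 and -0.06), while fibroblast markers lie at -1.65 and neutrophil markers at 2.33.

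Genes that make or sense amino acids were set beside the carriers. Of 22 measured genes of synthesis and stress linked to ATF4, 16 were higher in CM-Dox cells on average (45.2% of all genes), 10 had both CM-Dox arrays above both CM-Ctl arrays (14.5% of all genes) and 2 had both below (20.8% of all genes), and the median difference was 0.36 (0.57 without CM-Ctl array 1). Unadjusted p was under 0.05 for 8, all higher (3.17% of all genes), and none passed over all genes. Chac1, which degrades glutathione, read 2.26 and 2.60 on the CM-Dox arrays against -0.08 and 1.16 on the CM-Ctl arrays, a difference of 1.89 ± 0.53 (SE, limma adjusted p = 0.434). Ddit4, an inhibitor of mTORC1, differed by 1.56 ± 0.49 (SE), Ppp1r15a, which restores translation after stress, by 1.40 ± 0.47 (SE) and Cbs, an enzyme of cysteine synthesis, by 1.14 ± 0.42 (SE). The list did not move as one, since Atf4 itself differed by 0.44 ± 0.48 (SE) and Asns, the asparagine synthetase, by 0.09 ± 0.48 (SE), and Ddit3 by -0.49 ± 0.42 (SE).

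Other carriers of amino acids, most of them mitochondrial or lysosomal, were higher on average for 5 of 16 measured genes (45.2% of all genes), with a median of -0.34 and none at an unadjusted p under 0.05. The 4 with the smallest p were Slc25a22, a mitochondrial glutamate carrier, at 1.14 ± 0.56 (SE), Slc25a29, a mitochondrial carrier of basic amino acids, at -0.97 ± 0.53 (SE), Slc2a13 at -0.92 ± 0.62 (SE) and Slc25a12, the aspartate and glutamate carrier of mitochondria, at 0.84 ± 0.57 (SE). Slc2a13 carries myo-inositol and not an amino acid. Genes of amino acid sensing by mTORC1 had a median of 0.03, with 18 of 30 higher on average (45.2% of all genes). Of the 30, 22 were lowest on CM-Ctl array 1, and without it the median was -0.21, with both CM-Dox arrays below CM-Ctl array 2 for 17 (44.3% of all genes). Sesn1, a leucine-binding inhibitor of mTORC1, differed by 1.07 ± 0.48 (SE), Lamtor4 by -0.60 ± 0.40 (SE), Mtor by 0.60 ± 0.41 (SE) and Rraga, which recruits mTORC1 to lysosomes, by 0.52 ± 0.44 (SE). Of 19 measured cytosolic aminoacyl-tRNA ligases, which load amino acids onto tRNA, 18 were higher on average (45.2% of all genes) and 10 had both CM-Dox arrays above both CM-Ctl arrays (14.5% of all genes), but the median was 0.32 and none had an unadjusted p under 0.05. Eprs differed by 0.76 ± 0.43 (SE), Vars by 0.70 ± 0.42 (SE), Mars1 by 0.59 ± 0.43 (SE) and Rars by 1.20 ± 0.80 (SE). On CM-Ctl array 1 the ligases were lower than on CM-Ctl array 2 by a median of 0.58 (-0.58), and without that array their median difference was 0.11.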

How the data were processed

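The samples, adult mouse cardiomyocytes, were grouped by title into 2 CM-Dox and 2 CM-Ctl arrays. Spots were read with Agilent Feature Extraction 10.7.1.1, per the file headers. The deposited processed intensity is background-subtracted, corrected for spatial trend by that software, and carries no scaling across arrays. Other columns used are the deposited flags for background, saturation and outliers. Later steps by the authors are not given in the sources used here.

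For every array the processed intensity was put on the log2 scale relative to that array's 75th percentile over non-control spots. Outlier spots were dropped and repeated spots averaged. A RefSeq table of GRCm38.p6 gave gene symbols by unversioned accession: 27508 of 39429 probes were named, for 20886 genes. A probe was kept if at least 0.5 of its spots were well above background on 2 or more arrays, and each gene took its brightest probe (12542 genes). Groups were compared two-sided with limma 3.58.1 in R 4.3.3 (lmFit and eBayes, 4.69 prior and 2 residual degrees of freedom), and p-values were adjusted by Benjamini-Hochberg across those genes (threshold 0.05). The number of arrays limits the precision, and no spot was saturated (0 on each array). The fit was tested on simulated arrays.

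Members, lists and alternatives were chosen with earlier results of these data known. Values per array are given for the 14 members with the smallest p, for members below background in a group, for the heavy and light chains, for members whose probes disagree, for members at the filter's edge, and for some others chosen after their values were seen. Of every other list the 4 genes with the smallest p are named. Atf4, Asns and Ddit3 were added after their values were seen. Alternatives were normexp with an offset of 50 on the median spot signal, quantile and median scaling, other filters, the mean of probes, a variance trend, robust variance, a replicate block and leaving out each array. Some genes are not reported here. Figures were drawn with matplotlib 3.10.9.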

Additional observations from a re-analysis of the deposited data

How the results depend on the processing

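The count of members passing limma at an adjusted p under 0.05 was 0 under every alternative run, with 5 at an unadjusted p under 0.05 (3 higher and 2 lower, against 886 of all genes). The count over all genes was 0 in the reported analysis, 128 with scaling to the median, 295 with a replicate block and 0 to 171 with 1 array left out (32 without CM-Dox array 1, 171 without CM-Dox array 2, 0 without either CM-Ctl array). The cause was not tested. Whether same-numbered arrays were paired is not known, since the titles give only a number. The deviations of CM-Dox array 1 and CM-Ctl array 1 from their group means correlated at -0.085 across genes. With so few arrays this value cannot decide whether they were paired. The block left the count of members called at 0.

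Scaling to the median shifted the median of all genes by 0.35 to 0.29. Relative to that median 0 members turned direction, since the shift is the same for every gene. As raw values the members' median was then 0.27, and the family medians were 0.0734 (Slc1a), 1.39 (Slc3a), 0.13 (Slc6a), 0.61 (Slc7a), -0.22 (Slc36a), 0.23 (Slc38a) and 1.21 (Slc43a), so that Slc1a, Slc6a and Slc38a turned from negative to positive. Raw differences that turned positive were Slc1a1 (0.0734), Slc38a1 (0.23), Slc38a4 (0.11), Slc38a7 (0.0755), Slc6a8 (0.27), Slc6a9 (0.29), Slc7a5 (0.27) and Slc7a7 (0.0476). With normexp the medians were -0.24 for members, -0.25 for Slc7a and 0.48 for Slc43a, and Slc36a4 (-0.25), Slc38a10 (-0.0585), Slc6a17 (-0.11), Slc6a8 (0.0604) and Slc7a6 (-0.24) turned. Quantile normalization turned Slc38a4 (0.22) and Slc7a5 (0.0156), and the mean of probes Slc7a5 (0.54, which takes in a probe below background on both CM-Ctl arrays). With no filter, all 63 genes entered and the medians were -0.36 for members, 0.69 for Slc3a and -0.35 for Slc7a, and with the filter on all 4 arrays Slc7a stood at -0.19. The cause of these turns was not tested, apart from the number of genes entered.

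With 1 array left out the members' median ran from -0.29 to 0.11, and the family medians from -0.48 to -0.07 for Slc1a, 0.82 to 1.27 for Slc3a, -0.91 to -0.14 for Slc6a, 0.05 to 0.35 for Slc7a, -0.79 to -0.28 for Slc36a, -0.39 to 0.33 for Slc38a and 0.39 to 1.33 for Slc43a. Members that turned were Slc1a5 (-0.81 to 1.12), Slc36a4 (-0.29 to 0.69), Slc38a1 (-0.50 to 0.27), Slc38a3 (-0.43 to 0.49), Slc38a4 (-0.81 to 0.33), Slc43a3 (-0.51 to 1.29), Slc6a17 (-0.0049 to 1.89), Slc6a6 (-1.07 to 0.35), Slc6a8 (-0.67 to 0.51), Slc6a9 (-0.75 to 0.63), Slc7a5 (-0.59 to 0.43) and Slc7a7 (-1.24 to 0.64). The other 17 kept their direction in each of these 4 fits, and 13 members did so under every alternative run, among them Slc6a20a, which passed the filter only through the CM-Ctl arrays. Among these 13, Slc43a2 ranged from 1.12 to 2.24, Slc3a2 from 0.82 to 1.39, Slc38a2 from 0.75 to 1.80 and Slc36a2 from -1.95 to -0.79.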
